A study of Mus musculus with 48 samples.

Results

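The cell cycle and proliferation genes described here are 44 named genes, taken by symbol from the 47561 genes of a table of lung RNA levels in mice, and all 44 were found in the table. They were chosen by name for their part in DNA replication and cell division. No cut on a measured value was used, but earlier results of these data were known when they were chosen. The table holds 48 mice, with 3 in each of 16 groups that combine strain, sex, injection and air. The strains were C3H/hen (called C3H) and C57Bl/6 (called C57B), both inbred, where the study's text names the second as C57Bl/6N and the series description as C57B6/J, and both sexes of each were studied (C3HM, C3HF, C57BM and C57BF). The adult mice received 1 intraperitoneal injection of saline or of aurothioglucose (ATG, a gold drug and inhibitor of the enzyme thioredoxin reductase) at 25 mg/kg, and were then kept for 96 h in room air or in hyperoxia of over 95% oxygen. No mouse was left without an injection, each gave 1 library from a piece of whole lung, and an exact age was not used here. The sexes were pooled where a group of 6 mice is named below.

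Cells prepare to divide in G1, copy their DNA in S phase and separate the copies in mitosis (M). E2F transcription factors switch on the genes of DNA copying, and the MuvB complex with MYBL2 and FOXM1 switches on those of mitosis. Most cells of the adult lung are out of the cycle, and alveolar type 2 cells, endothelial cells and leukocytes are among those that can divide. Which cells the transcripts came from was not measured in whole lung. Here, fewer dividing cells and less RNA per dividing cell cannot be told apart.

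Levels are FPKM, fragments scaled to the length of the transcript and the mapped fragments of the library, so levels of different genes can be set side by side. Changes are differences of log2(FPKM + 1), which understate the change of genes with a low level. A member is called when its limma p-value, adjusted over all genes tested, is under 0.05. Mice of 1 group correlated with each other at 0.933 to 0.979. C3HM mice 1 and 3, given saline in room air, stood apart from all others on the third principal component. C57BM mouse 19 and C3HF mouse 33, given saline and hyperoxia, were among the 4 mice with the weakest correlation to their own group. Counts were repeated without each of these pairs.

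To show which regulatory letters the members share, the bases before the transcript start were read from RefSeq (GRCm38.p6), which held a promoter for 37 of the 44 members. Each promoter spans 250 bases before to 50 after the start. The letters TTTGAA on either strand, known as the CHR element and bound by the MuvB complex, were in 18 of the 37 promoters and in 20.2% of those of all 27025 genes. The letters CCAAT on either strand were in 28 of 37 and in 41.1% of all genes. The E2F-type letters TTTCCCGC, TTTGGCGC or TTCCCGCC on either strand, of which TTTCCCGC and TTCCCGCC can overlap, were in 7 of 37 and in 3.69% of all genes. By role, TTTGAA was in 5 of 7 promoters of mitotic kinases and checkpoint genes and in 0 of 5 of DNA synthesis genes. The E2F-type letters were in 5 of 7 promoters of licensing genes (Mcm3, Mcm5, Mcm6, Mcm7 and Cdc6), in Rrm1 and in Uhrf1. These are letter matches only, and no match says only that the letters are not in this window.

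The bases of 4 mitotic members follow whose change with oxygen differed between strains (Top2a and Cdc20 in saline and in ATG mice, Cdk1 and Ccnb2 in ATG mice), with CCAAT and TTTGAA (either strand) in capitals. They end at the start, or where the annotated gene begins.
Top2a, chr11:99024190-99024349, minus strand: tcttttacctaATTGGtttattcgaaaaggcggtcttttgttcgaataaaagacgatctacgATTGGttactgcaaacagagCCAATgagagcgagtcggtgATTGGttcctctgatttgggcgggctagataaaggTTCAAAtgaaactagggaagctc
Cdk1, chr10:69352939-69353072, minus strand: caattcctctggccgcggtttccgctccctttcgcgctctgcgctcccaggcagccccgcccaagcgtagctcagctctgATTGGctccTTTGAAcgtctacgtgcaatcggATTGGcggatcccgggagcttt
Ccnb2, chr9:70421555-70421714, minus strand: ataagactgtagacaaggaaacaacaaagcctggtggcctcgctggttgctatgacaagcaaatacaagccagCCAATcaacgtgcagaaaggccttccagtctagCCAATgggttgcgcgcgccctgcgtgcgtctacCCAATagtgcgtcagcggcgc
Cdc20, chr4:118437353-118437503, minus strand: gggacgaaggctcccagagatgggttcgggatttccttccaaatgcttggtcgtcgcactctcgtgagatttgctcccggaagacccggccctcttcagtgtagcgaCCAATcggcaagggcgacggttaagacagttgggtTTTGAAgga

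Next come 2 licensing members and 2 DNA synthesis members that moved in opposite directions, with CCAAT and the E2F-type letters in capitals. Tyms has neither in the bases printed.
Mcm3, chr1:20820313-20820472, minus strand: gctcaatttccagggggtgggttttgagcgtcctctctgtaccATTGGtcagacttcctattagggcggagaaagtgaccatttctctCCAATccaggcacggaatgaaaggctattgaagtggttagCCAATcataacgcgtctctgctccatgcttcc
Mcm5, chr8:75109349-75109508, plus strand: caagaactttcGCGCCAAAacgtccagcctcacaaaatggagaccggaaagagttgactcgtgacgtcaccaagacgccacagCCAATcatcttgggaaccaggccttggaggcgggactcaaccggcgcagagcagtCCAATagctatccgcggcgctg
Rrm1, chr7:102441535-102441694, plus strand: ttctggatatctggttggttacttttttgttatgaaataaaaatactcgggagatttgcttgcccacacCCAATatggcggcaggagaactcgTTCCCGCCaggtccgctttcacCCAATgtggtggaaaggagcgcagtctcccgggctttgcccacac
Tyms, chr5:30073626-30073785, minus strand: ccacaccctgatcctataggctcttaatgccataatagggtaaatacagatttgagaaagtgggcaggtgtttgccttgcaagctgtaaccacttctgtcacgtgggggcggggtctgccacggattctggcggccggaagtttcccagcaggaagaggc

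Top2a (chr11:98992943-99024189, minus strand) had CCAAT boxes that began 149, 98, 78 and 58 bases before the start and a CHR element at 23 to 18 bases before it, and another CHR element lay further out than the bases printed. Cdc20 (chr4:118432901-118437352, minus strand) had a CHR element at 18 to 13 bases before the start. Cdk1 (chr10:69335146-69352938, minus strand) had 1 at 71 to 66 bases before the start and another that is not printed because it lies in the annotated gene. In Ccnb2 (chr9:70407692-70421547, minus strand), TTTGAA lay before the printed bases and after the start, and the 3 CCAAT boxes began 87, 54 and 21 bases before the start. In Mcm5 (chr8:75109569-75128439, plus strand), no GENCODE M21 transcript starts in the window of the table. In Rrm1 (chr7:102441695-102469771, plus strand), the E2F-type letters lay between the CCAAT boxes. Mcm3 (chr1:20802968-20820312, minus strand) holds its E2F-type letters after the start, and Tyms lies at chr5:30058202-30073617 on the minus strand.

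Members spanned a wide range of levels, and 33 of 44 had a median FPKM of at least 1 over the 48 mice, against 29.6% of all genes. The highest median was that of Pcna, the sliding clamp of DNA polymerase, at 41.4 FPKM, followed by the helicase subunits Mcm3 at 11.9 and Mcm6 at 10.1. Tyms at 9.28, Rrm1 at 9.04, Mcm4 at 6.74, Mcm7 at 6.07 and Mcm2 at 5.49 came next, and 0 of these 8 highest members act in mitosis. The highest mitotic members were Cdk1 at 4.87, Top2a at 4.61 and Cdc20 at 3.80 FPKM. The lowest were the kinase Ttk at 0.331 and the transcription factor Mybl2 at 0.358. The order of neighbours in this list is not a difference, since Pcna alone ran from 19.9 to 64.6 FPKM over the mice and Mcm3 from 5.96 to 30.9.

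The mean level of the 44 members, as log2(FPKM + 1) averaged over members in each mouse, was lowest in C57B mice in hyperoxia. In saline C57B mice it lay between 1.73 and 2.11 in room air (median 1.95) and between 1.21 and 1.57 in hyperoxia (median 1.45), so the groups did not overlap. In saline C3H mice it lay between 1.48 and 2.02 in room air (median 1.80) and between 1.46 and 2.04 in hyperoxia (median 1.67), almost the same range. These ranges pool the sexes. In room air the C3HM mice lay between 1.48 and 1.76 and the C3HF mice between 1.85 and 2.02. In hyperoxia they lay between 1.55 and 1.71 and between 1.46 and 2.04. In ATG C57B mice it ran from 1.71 to 2.16 in room air and from 1.37 to 1.79 in hyperoxia, and these ranges overlapped. In ATG C3H mice it ran from 1.56 to 1.77 in room air and from 1.79 to 1.98 in hyperoxia, so here the mice in oxygen were the higher ones. The median log2 change over all genes was also above 0 in ATG C3H mice, at 0.11. Median ratio scaling moved the difference of the members' mean level there from 0.20 to 0.11. Within the C3HF mice given saline and hyperoxia, mouse 33 was lowest at 1.46 and mouse 31 highest at 2.04.

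**Figure D1:**
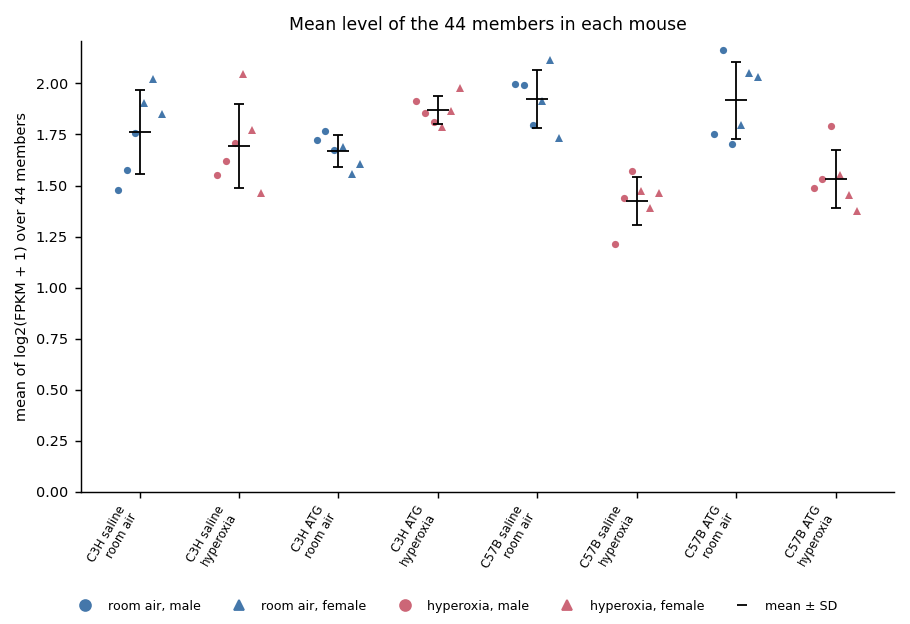
Mean of log2(FPKM + 1) over the 44 members in each mouse (points, circles for males and triangles for females) for the 8 sets of 6 mice, with mean ± SD in black. Saline C57B mice in hyperoxia lie between 1.21 and 1.57, below all saline C57B mice in room air, and ATG C3H mice in hyperoxia lie between 1.79 and 1.98, above all ATG C3H mice in room air.

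Hyperoxia was first compared with room air over the 24 saline mice, averaged over strain and sex. Of 41 members tested, 23 were lower and 3 higher in hyperoxia, where 28.3% of the 16321 genes tested were lower and 31.8% higher. The median change was -0.32, against 0.01 over all genes. Mybl2, Ttk and Ndc80 did not reach an FPKM of 1 in 3 of these mice and were not tested. Without a filter all 44 members could be tested, and 24 were lower and 3 higher. Of the 26 calls, 19 were kept in every alternative, and quantile normalization ended those of Mki67, Ccne2, Cdc6, Ccna2, Aurka, Kif11 and Cenpf. The settings that left out a pair of mice are not in this count. Of the 19, Rrm2 lost its call without C3HM mice 1 and 3 (limma, adjusted p = 0.0627).

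Both proliferation markers, Mki67 (a protein of the chromosome surface in dividing cells) and Top2a (the topoisomerase that untangles sister DNA), were lower in hyperoxia. Top2a, the member with the largest change, fell by 1.11 ± 0.14 (SE) on the log2 scale (adjusted p = 9.51e-07). In saline C57B mice Top2a lay between 5.14 and 8.65 FPKM in room air (median 7.89) and between 0.740 and 2.03 in hyperoxia (median 1.13). All 6 mice in oxygen were below all 6 in air, and the mean went from 7.24 ± 1.53 to 1.25 ± 0.47 FPKM (SD, n = 6), a ratio of 0.173 (two-sided exact permutation test on FPKM, p = 0.00217, the smallest that 6 against 6 allows). Top2a in saline C3H mice ran from 3.32 to 8.24 FPKM in room air (median 5.73) and from 3.01 to 6.21 in hyperoxia (median 4.11). These groups overlapped, with 1 mouse in oxygen below all in air, and the exact permutation test (two-sided, n = 6) gave p = 0.139.

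Mki67 fell by 0.42 ± 0.11 on the log2 scale over the 24 saline mice (adjusted p = 0.00299), a call that quantile normalization ended here and in C57B mice of both injections. In saline C57B mice it lay between 1.08 and 2.42 FPKM in room air (median 1.54) and between 0.542 and 1.10 in hyperoxia (median 0.817). In saline C3H mice it lay between 0.910 and 2.01 in room air (median 1.48) and between 0.639 and 1.76 in hyperoxia (median 0.792). The hyperoxia mice of both strains sat at the low end, but 1 in C57B and 2 in C3H were within the range of room air. The exact permutation test (two-sided, n = 6) gave p = 0.00433 in C57B and p = 0.0801 in C3H.

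Among the G1/S cyclins and transcription factors, 2 of 4 tested members were lower over the saline mice, where 28.3% of all genes were. E2f1, the activator of S phase genes, fell by 0.88 ± 0.11 (adjusted p = 1.50e-06), and Ccne2, a cyclin that starts S phase, fell by 0.37 ± 0.13. Ccne1, the other E cyclin, changed by -0.04 ± 0.12 and Foxm1 by 0.19 ± 0.11, neither of them called. E2f1 lay between 3.86 and 6.17 FPKM in saline C57B mice in room air (median 4.60) and between 1.01 and 2.10 in hyperoxia (median 1.62), with no overlap. In saline C3H mice it ran from 3.01 to 6.38 in room air (median 4.39) and from 1.47 to 3.65 in hyperoxia (median 2.65), where 4 of 6 mice in oxygen were below all mice in air. The exact permutation test (two-sided, n = 6) gave p = 0.00217 in C57B and p = 0.00649 in C3H.

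Of the 8 members that license replication origins or open the DNA (Mcm2 to Mcm7, Cdc6 and Cdc45), 5 were lower over the saline mice. The share lower over all genes was 28.3%. Mcm3 fell by 0.51 ± 0.14, Mcm5 by 0.49 ± 0.10, Mcm7 by 0.47 ± 0.10, Mcm4 by 0.34 ± 0.07 and Cdc6, which loads the helicase, by 0.32 ± 0.11. Mcm2 (-0.10 ± 0.12), Mcm6 (-0.03 ± 0.10) and Cdc45 (0.14 ± 0.13) were not called. The call of Cdc6 was lost without C3HM mice 1 and 3 (adjusted p = 0.081). Subunits of the 1 helicase ring therefore did not all pass the test. Mcm3 lay between 10.2 and 30.9 FPKM in saline C3H mice in room air (median 14.0) and between 9.09 and 13.8 in hyperoxia (median 11.1). The 2 highest values, 30.9 and 26.4, were those of C3HM mice 1 and 3, and the call of Mcm3 in C3H mice was lost without them (adjusted p = 0.443). Mcm3 in saline C57B mice ran from 10.4 to 18.4 in room air (median 12.4) and from 6.40 to 14.1 in hyperoxia (median 9.79), with overlap. The exact permutation test (two-sided, n = 6) gave p = 0.0519 in C57B and p = 0.0671 in C3H.

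The DNA synthesis members moved in both directions. Rrm1 (the large subunit of ribonucleotide reductase, which makes the building blocks of DNA) rose by 0.53 ± 0.11 (adjusted p = 0.000355), Tyms (thymidylate synthase) by 0.50 ± 0.10 and Pcna by 0.29 ± 0.06. Rrm2, the other subunit of ribonucleotide reductase, fell by 0.46 ± 0.14, and its call was lost without C3HM mice 1 and 3 (adjusted p = 0.0627). Uhrf1, which helps in the copying of DNA methylation to the new strand, changed by 0.03 ± 0.11 and was not called. Rrm1 lay between 7.43 and 9.20 FPKM in saline C3H mice in room air (median 8.39) and between 8.63 and 17.7 in hyperoxia (median 13.7). It ran from 6.67 to 8.67 in saline C57B mice in room air (median 7.93) and from 7.59 to 16.2 in hyperoxia (median 11.2). In both strains 5 of 6 mice in oxygen were above all mice in air, and the exact permutation test (two-sided, n = 6) gave p = 0.00866 in C3H and p = 0.0173 in C57B.

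Tyms rose in saline C3H mice, from between 5.57 and 9.78 FPKM in room air (median 6.98) to between 9.14 and 20.2 in hyperoxia (median 12.1), with a narrow overlap. Its log2 change in C3H was 0.77 ± 0.14 and in C57B 0.24 ± 0.14, and the second was not called. Pcna ran from 19.9 to 31.9 FPKM in saline C3H mice in room air and from 30.8 to 41.2 in hyperoxia, again with a narrow overlap. Pcna in saline C57B mice ran from 44.6 to 50.1 in room air and from 51.0 to 60.1 in hyperoxia, with no overlap. Reads of both genes could be shared with other genes, since 31.6% of the 30-base sequences of Pcna and 16.5% of those of Tyms also occur in other transcripts.

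Of the mitotic cyclins and their partners, Ccnb2, Ccna2 and Cdk1 (the kinase that drives entry into mitosis) were lower over the saline mice, and Ccnb1 (-0.16 ± 0.10) and Cdc20 (-0.27 ± 0.18) were not called. Ccnb2 fell by 0.63 ± 0.15 (adjusted p = 0.0011), Cdk1 by 0.51 ± 0.15 and Ccna2 by 0.40 ± 0.13. The call of Ccna2 was lost without C3HM mice 1 and 3 (adjusted p = 0.0698). Ccnb2 in saline C57B mice lay between 2.88 and 3.82 FPKM in room air (median 3.51) and between 0.566 and 2.20 in hyperoxia (median 1.39), with no overlap. In saline C3H mice it lay between 1.20 and 3.72 in room air (median 3.26) and between 0.854 and 4.27 in hyperoxia (median 1.64), and the highest mouse of all was one in oxygen. The exact permutation test (two-sided, n = 6) gave p = 0.00217 in C57B and p = 0.264 in C3H.

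Of the mitotic kinases, the passenger complex and the spindle checkpoint, 4 of 7 tested members were lower, where 28.3% of all genes were. Birc5 (survivin, a passenger complex subunit) fell by 0.67 ± 0.19 (adjusted p = 0.00441), Bub1 (a checkpoint kinase) by 0.52 ± 0.13, Cdca8 (another passenger subunit) by 0.45 ± 0.12 and Aurka (a kinase of the spindle poles) by 0.36 ± 0.13. Aurkb (-0.31 ± 0.13), the kinase of that complex, Plk1 (-0.29 ± 0.15) and Bub1b (-0.06 ± 0.14) were not called. Birc5 in saline C57B mice lay between 2.98 and 8.00 FPKM in room air (median 5.57) and between 1.37 and 3.51 in hyperoxia (median 1.61). In saline C3H mice it ran from 1.89 to 5.22 in room air (median 3.12) and from 1.80 to 6.19 in hyperoxia (median 2.22). In C57B 5 of 6 mice in oxygen were below all in air, whereas the C3H ranges almost coincided, and the exact permutation test (two-sided, n = 6) gave p = 0.00433 and p = 0.649.

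Of the spindle, kinetochore and cytokinesis members, 6 of 10 tested were lower, where 28.3% of all genes were. Kif20a, a motor of cytokinesis, fell by 0.67 ± 0.11 (adjusted p = 2.36e-05), Prc1, which bundles the central spindle, by 0.56 ± 0.13, Nusap1, which binds spindle microtubules, by 0.55 ± 0.13 and Kif23, another motor of cytokinesis, by 0.41 ± 0.08. Cenpf (kinetochore, by 0.32 ± 0.12) and Kif11, the motor that separates the spindle poles (by 0.29 ± 0.09), fell less. The call of Cenpf was lost without any 1 of 4 mice (C3HM mice 7 and 8, C3HF mice 26 and 33; largest adjusted p = 0.0581) and in the fit of all 48 mice. Tpx2 (-0.25 ± 0.12), Nuf2 (-0.31 ± 0.15), Cenpe (-0.08 ± 0.16) and Ect2 (0.00 ± 0.13) were not called. Kif20a in saline C57B mice lay between 1.87 and 3.39 FPKM in room air (median 2.74) and between 0.755 and 1.82 in hyperoxia (median 0.952), with no overlap. In saline C3H mice it ran from 2.11 to 4.64 in room air (median 3.12) and from 1.53 to 2.46 in hyperoxia (median 1.99), where 3 of 6 mice in oxygen were below all in air. The exact permutation test (two-sided, n = 6) gave p = 0.00217 in C57B and p = 0.00866 in C3H.

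**Figure D2:**
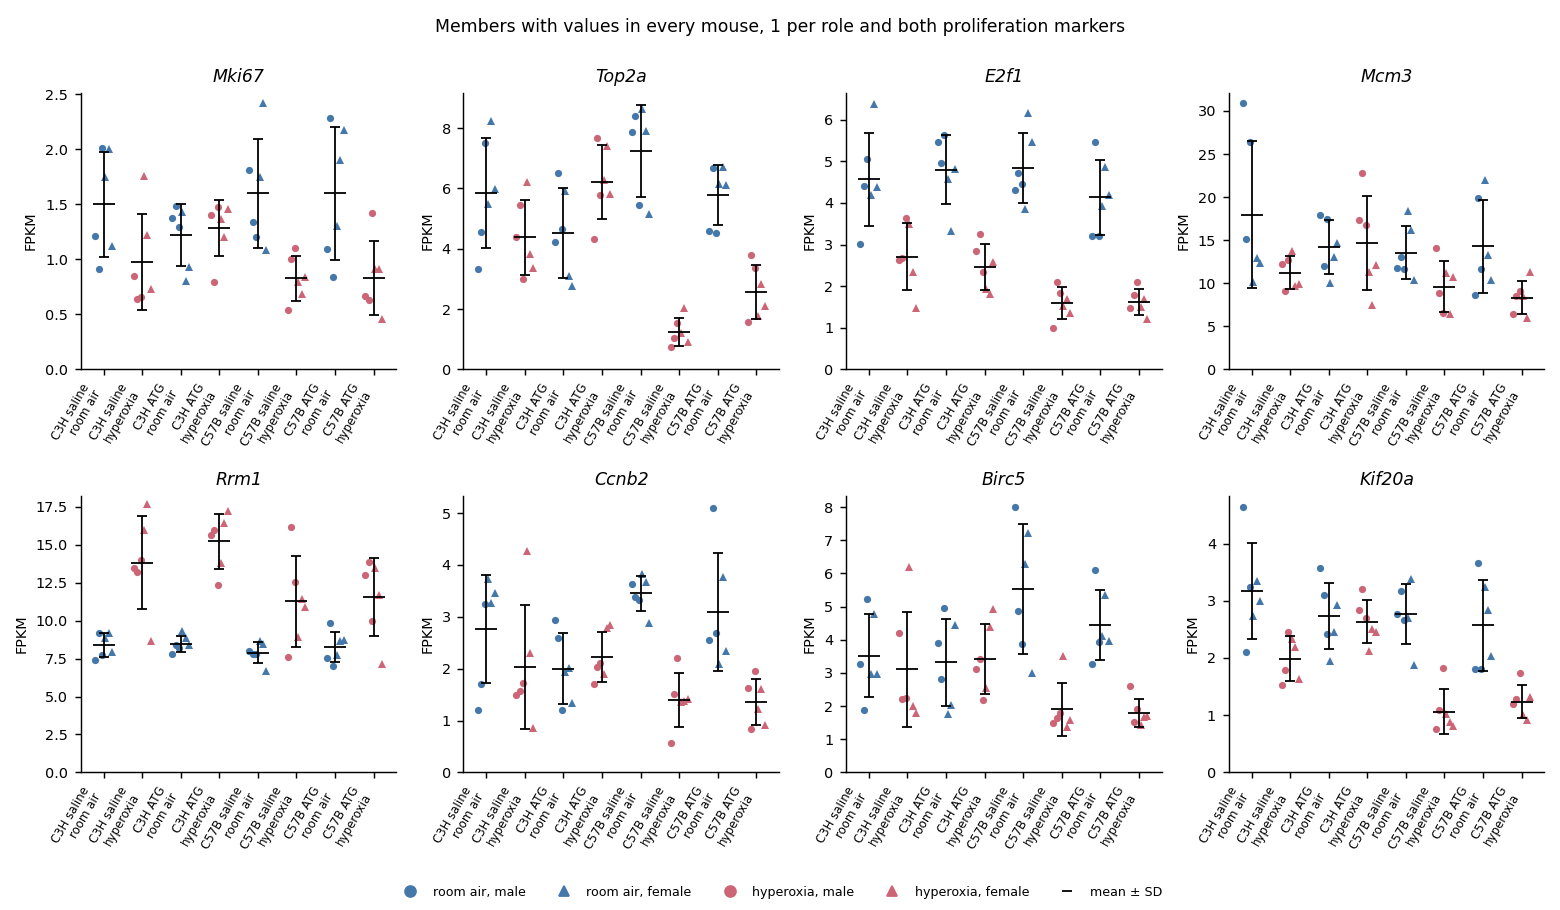
FPKM of both proliferation markers and of the member with the largest change in each other role, for each mouse (circles males, triangles females) in the 8 sets of 6 mice, with mean ± SD in black. Top2a in saline C57B mice goes from a mean of 7.24 FPKM in room air to 1.25 in hyperoxia, while Rrm1 is higher in hyperoxia, with means of 13.8 against 8.38 FPKM in saline C3H mice.

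Over the 8 members plotted, 2 strains and 2 injections, 32 exact permutation tests were made, and 20 had a Benjamini-Hochberg adjusted p under 0.05. The adjustment covers these 32 tests only. Apart from Mki67 and Top2a, the members were picked for the largest change of their role in the same saline mice. The count of 20 is therefore no independent support, and a share over all genes was not computed for this test. In these exact permutation tests the adjusted value of p = 0.00217 was 0.0063, that of p = 0.0173 was 0.0308 and that of p = 0.0519 was 0.0792.

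The same 24 saline mice were then compared within each strain. In C57B mice 28 of 41 tested members were lower in hyperoxia and 2 higher (Pcna and Rrm1), where 30.0% of all genes were lower and 25.5% higher. The median change of the members was -0.50, against -0.06 over all genes. The largest falls were those of Top2a (by 1.88 ± 0.20), E2f1 (by 1.17 ± 0.16), Birc5 (by 1.15 ± 0.26), Bub1 (by 1.00 ± 0.18), Ccnb2 (by 0.92 ± 0.21) and Cdk1 (by 0.89 ± 0.22). All 5 mitotic cyclins and partners, 6 of 7 mitotic kinases and checkpoint members and 8 of 10 spindle members were lower. With quantile normalization 16 members were lower. Of the 30 calls, 21 were kept with any single mouse left out. The calls of Pcna and Rrm1 lay near the threshold (limma, adjusted p = 0.0345 and 0.0252). Leaving out any 1 of 7 mice ended the call of Pcna (largest adjusted p = 0.0873). Leaving out any 1 of 4 mice ended that of Rrm1 (largest adjusted p = 0.0868).

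In C3H mice 3 members were lower (E2f1, Mcm3 and Kif20a) and 3 higher (Pcna, Rrm1 and Tyms), where 12.5% of all genes were lower and 25.3% higher. The median change of the members was -0.12, against 0.10 over all genes. With quantile normalization the calls over all genes went from 4130 higher and 2039 lower to 3090 and 2950. E2f1 fell by 0.59 ± 0.16 (adjusted p = 0.0068), Mcm3 by 0.54 ± 0.19 and Kif20a by 0.47 ± 0.15. Tyms rose by 0.77 ± 0.14, Rrm1 by 0.64 ± 0.16 and Pcna by 0.37 ± 0.09. The call of Kif20a, like that of Mcm3, was lost without C3HM mice 1 and 3 (adjusted p = 0.298). With median ratio scaling 8 members were lower, and leaving out 1 mouse gave between 1 (C3HF mouse 33) and 7 (C3HF mouse 31).

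**Figure D3:**
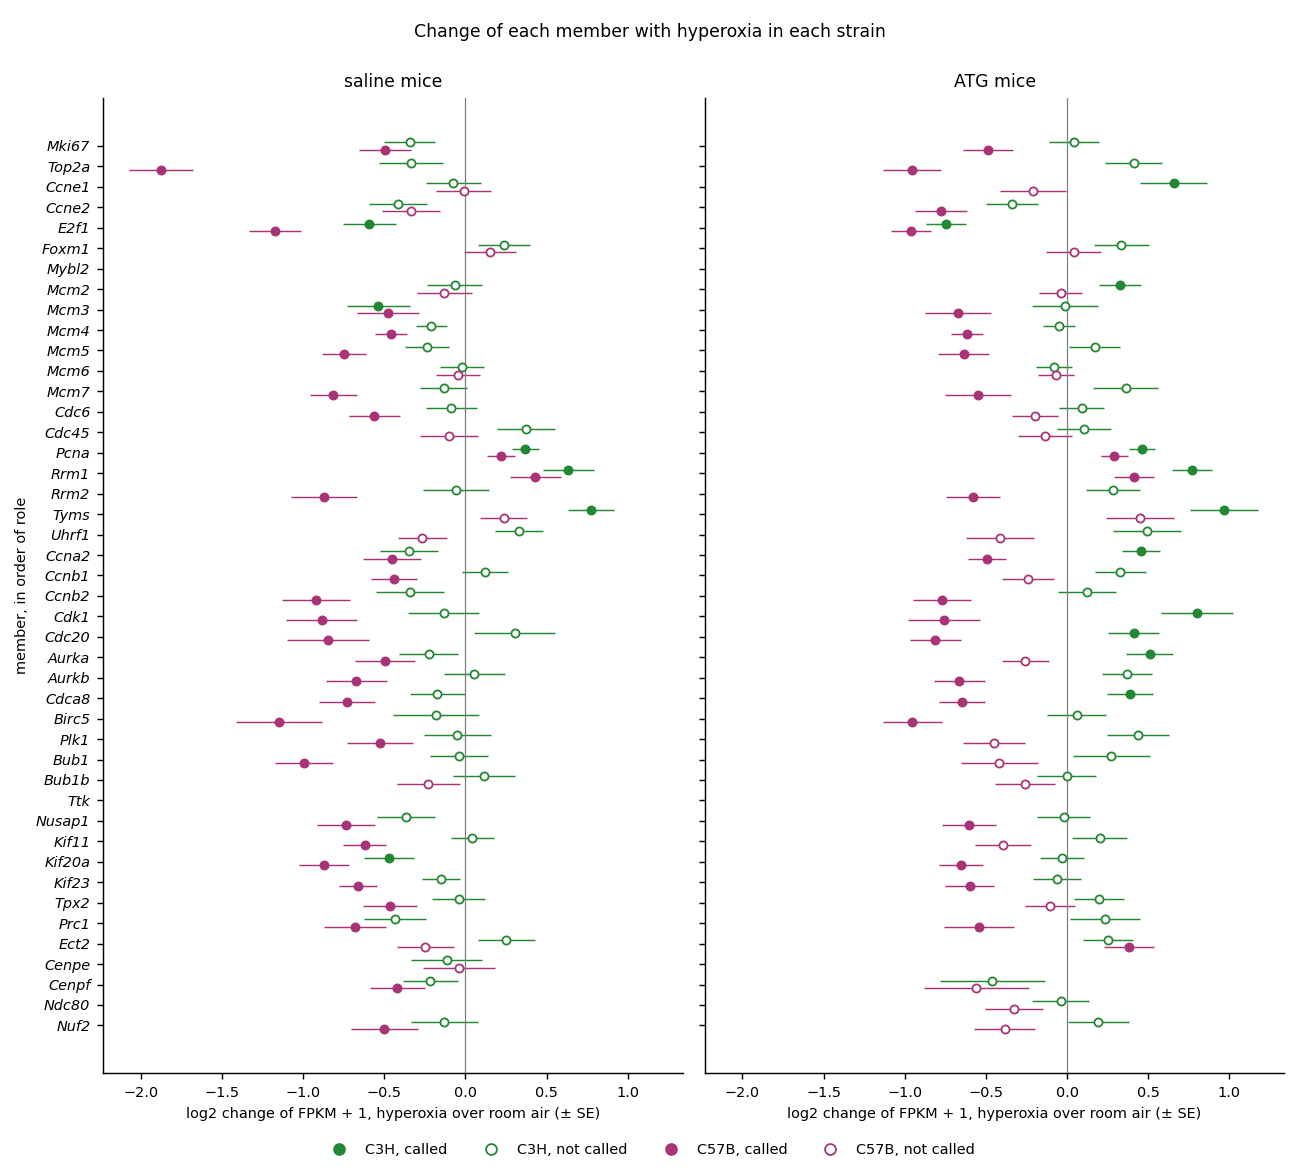
Change of log2(FPKM + 1) from room air to hyperoxia for each member (± SE) in C3H (green) and C57B (purple), in saline mice (left) and ATG mice (right), with filled points for called changes and no point for members not tested. In saline mice 28 members are called lower in C57B and 3 in C3H, and Top2a in C57B lies furthest left at -1.88.

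The difference between the strains was tested as an interaction in the saline mice, with positive values where the change with hyperoxia was higher in C3H. It was positive for 37 of 41 members, with a median of 0.47 against 0.15 over all genes, and 5 members were called higher and 0 lower, where 8.71% of all genes were higher. These were Top2a (1.54 ± 0.28, adjusted p = 0.00173), Cdc20 (1.15 ± 0.36, adjusted p = 0.0409), Bub1 (0.95 ± 0.25, adjusted p = 0.0192), Mcm7 (0.68 ± 0.21, adjusted p = 0.037) and Kif11 (0.66 ± 0.19, adjusted p = 0.0262). The differences of Mki67, E2f1, Mcm3, Rrm1, Tyms, Ccnb2, Birc5 and Kif20a, whose values in each strain are given above, were not called. At an unadjusted p under 0.05 there were 17 members. With median ratio scaling the median of all genes moved by over 0.1, to 0.00, and that of the members was 0.36, while quantile normalization gave 0.19 for the members and went from 1422 genes higher and 458 lower to 869 and 849. The call of Top2a was kept in every alternative and with any single mouse left out. The calls of Mcm7, Cdc20 and Kif11 were each lost without C3HM mice 1 and 3 (adjusted p = 0.0877, 0.0845 and 0.0643), which left 2 members. That of Mcm7 was also lost without any 1 of 14 mice and that of Cdc20 without any 1 of 15, and both were lost with no filter, quantile normalization or median ratio scaling. Leaving out 1 mouse gave between 2 members (C3HF mouse 31) and 11 (C3HF mouse 33).

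Sex was tested in the same way. The difference between the sexes in the change with hyperoxia was called for 0 of 41 members by limma, with 2 at an unadjusted p under 0.05, where 0.0368% of all genes were called in either direction. The sexes of these mice are given by the labels only.

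The 24 mice given ATG share no mouse with the saline mice, and the same contrasts were fitted in them. Over both strains, 9 of 41 tested members were lower and 4 higher in hyperoxia, where 26.0% of all genes were lower and 35.8% higher. E2f1 fell by 0.85 ± 0.09 and Ccne2 by 0.56 ± 0.11. Birc5, Kif20a, Mcm3, Mcm4, Ccnb2, Kif23 and Nusap1 fell by 0.31 to 0.45 on the log2 scale, and the calls of Mcm3, Ccnb2 and Nusap1 were lost without any 1 of 13, 9 and 4 mice (largest adjusted p = 0.0929, 0.0641 and 0.056). Tyms (0.71 ± 0.15), Rrm1 (0.59 ± 0.09), Pcna (0.38 ± 0.06) and Ect2 (0.32 ± 0.11), which drives the contractile ring in cytokinesis, were higher. With median ratio scaling 14 members were lower.

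In ATG C57B mice 20 members were lower and 3 higher (Rrm1, Ect2 and Pcna), where 25.4% of all genes were lower and 30.7% higher, and the median change of the members was -0.49 against 0.02 over all genes. The call of Ect2 was lost without any 1 of 8 mice (largest adjusted p = 0.122) and in 4 other settings, and that of Pcna with quantile normalization. The largest falls were those of E2f1 (by 0.96 ± 0.12), Top2a (by 0.96 ± 0.18), Birc5 (by 0.95 ± 0.18), Cdc20 (by 0.81 ± 0.16), Ccne2 (by 0.78 ± 0.16) and Ccnb2 (by 0.77 ± 0.18). Top2a lay between 4.51 and 6.71 FPKM in room air (median 6.14) and between 1.56 and 3.78 in hyperoxia (median 2.46), with no overlap. Birc5 ran from 3.26 to 6.10 in room air (median 4.04) and from 1.42 to 2.60 in hyperoxia (median 1.67), again with no overlap. Both ratios of the means were below 0.5, at 0.443 and 0.404 (exact permutation test, two-sided, n = 6, p = 0.00217 each).

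In ATG C3H mice 10 members were higher and 1 lower, where 30.4% of all genes were higher and 17.5% lower, and the median change of the members was 0.23 against 0.11 over all genes. With quantile normalization the calls over all genes went from 4934 higher and 2832 lower to 3713 and 3787. The largest rises were those of Tyms (0.97 ± 0.21), Cdk1 (0.80 ± 0.22), Rrm1 (0.77 ± 0.12), Ccne1 (0.66 ± 0.20), Aurka (0.51 ± 0.15) and Pcna (0.46 ± 0.08), and Ccna2, Cdc20, Cdca8 and Mcm2 were the others. The calls of Mcm2, Cdc20 and Cdca8 were lost without any 1 of 15, 7 and 5 mice (largest adjusted p = 0.135, 0.111 and 0.0869) and with quantile normalization or median ratio scaling. E2f1 was the 1 member called lower (by 0.75 ± 0.12, adjusted p = 4.37e-05). Cdk1 lay between 2.24 and 3.94 FPKM in room air (median 3.28) and between 4.81 and 11.7 in hyperoxia (median 5.54), with no overlap. E2f1 lay between 3.32 and 5.63 in room air (median 4.90) and between 1.80 and 3.25 in hyperoxia (median 2.46), so this activator and the kinase moved in opposite directions in the same 12 mice. Top2a ran from 2.76 to 6.51 in room air (median 4.43) and from 4.33 to 7.66 in hyperoxia (median 6.04), which was not called (adjusted p = 0.0634).

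The strain difference in the ATG mice was positive for 39 of 41 members, with a median of 0.58 against 0.05 over all genes, and 16 members were called higher and 0 lower, where 8.27% of all genes were higher. The largest were those of Cdk1 (1.56 ± 0.31, adjusted p = 0.00262), Top2a (1.37 ± 0.25, adjusted p = 0.00137), Cdc20 (1.22 ± 0.22), Cdca8 (1.03 ± 0.20), Aurkb (1.03 ± 0.22) and Birc5 (1.01 ± 0.26). The others were Ccna2, Mcm7, Uhrf1, Ccnb2, Plk1, Rrm2, Mcm5, Aurka, Kif20a and Mcm4, between 0.57 and 0.95. By role, 4 of 5 mitotic cyclins and partners, 5 of 7 mitotic kinases and checkpoint members and 1 of 10 spindle members were among them. With quantile normalization 9 members were called, and the calls over all genes went from 1340 higher and 816 lower to 1126 and 1220. A total of 12 of the 16 calls were kept with any single mouse left out, and those of Mcm7, Uhrf1, Plk1 and Kif20a were lost without some mice (largest adjusted p = 0.0721, 0.0918, 0.0667 and 0.0678).

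Set side by side, 40 members were tested in both the saline and the ATG mice, and the strain difference was positive in both for 35. The share of all genes positive in both was not counted, and their median difference was also above 0, at 0.15 and 0.05. With median ratio scaling it was -0.001 in saline and -0.016 in ATG mice, beside 0.36 and 0.53 for the members. Top2a, Cdc20 and Mcm7 were called in both, which is 3 of the 5 called in saline mice and 3 of the 16 called in ATG mice. Of these, only Top2a kept both calls in every alternative and with any single mouse left out, since those of Cdc20 and Mcm7 in saline mice and of Mcm7 in ATG mice did not. Cdc20 and Mcm7 are among 11 members with over 10% of their 30-base sequences shared with other transcripts (30.8% and 42.4%), and their exons overlap genes on the opposite strand, so reads of other genes may be counted with them. Whether the strain difference itself differs between saline and ATG mice was not tested.

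**Figure D4:**
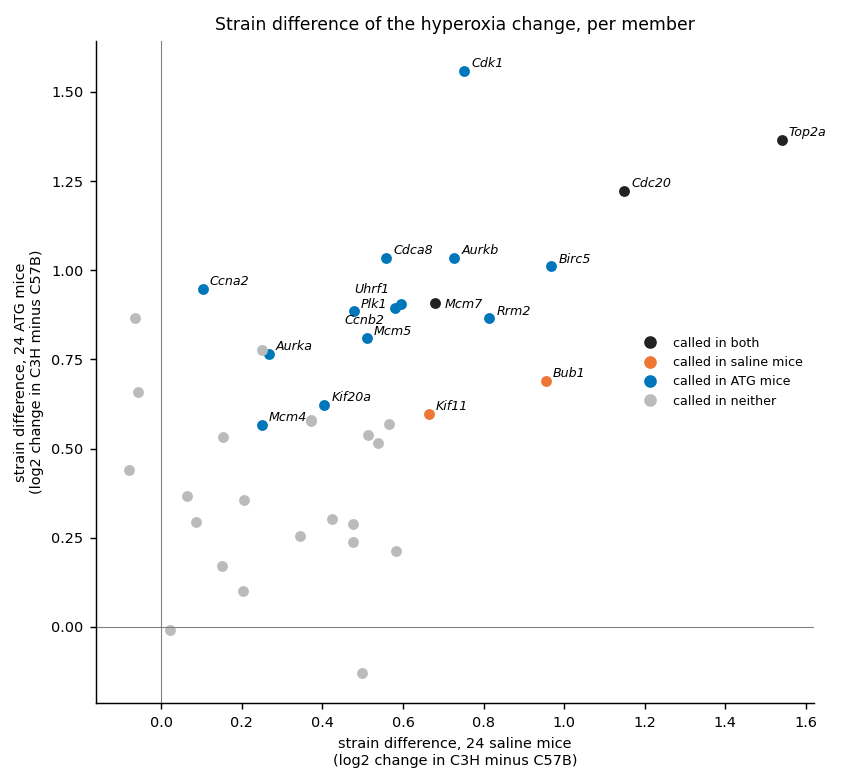
Strain difference of the change with hyperoxia (log2 change in C3H minus that in C57B) of each member in the 24 saline mice (x axis) and in the 24 ATG mice (y axis), coloured by call. Most points lie above and to the right of 0, 35 of 40 members being positive on both axes, and Top2a lies at 1.54 and 1.37.

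ATG itself was compared with saline in each air. In room air 0 of 42 members were called by limma, with 3 at an unadjusted p under 0.05, where 0.0185% of all genes were called in either direction. In hyperoxia 1 of 40 members was called, Top2a, which was higher with ATG (0.54 ± 0.13, adjusted p = 0.0245), where 3.89% of all genes were higher. Over the 48 mice, the difference between ATG and saline mice in the change with hyperoxia was called for Top2a alone of 42 members (0.83 ± 0.19, adjusted p = 0.0157), where 1.56% of all genes were higher. With quantile normalization the calls over all genes went from 617 higher and 251 lower to 356 and 412 in hyperoxia, and from 265 and 205 to 185 and 345 for this difference. In hyperoxia Top2a ran from 0.740 to 2.03 FPKM in saline C57B mice and from 1.56 to 3.78 in ATG C57B mice, and from 3.01 to 6.21 in saline C3H mice and from 4.33 to 7.66 in ATG C3H mice. The ranges overlapped in both strains, and the call in hyperoxia was lost without C57BM mouse 24 (adjusted p = 0.0511).

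At baseline, in the 12 saline mice in room air, 3 of 39 tested members were lower in C3H than in C57B and 0 higher, where 7.87% of all genes were lower. Pcna was lower by 0.80 ± 0.08 on the log2 scale (adjusted p = 7.13e-05), between 19.9 and 31.9 FPKM in C3H and between 44.6 and 50.1 in C57B. Bub1b, a checkpoint protein, had a difference of -0.69 ± 0.17 and ran from 0.289 to 1.43 in C3H and from 1.34 to 3.29 in C57B. Bub1 had a difference of -0.62 ± 0.18 and ran from 0.427 to 1.16 in C3H and from 1.03 to 2.14 in C57B. Pcna did not overlap between strains, whereas Bub1 and Bub1b overlapped in a narrow range and lost their calls without C3HM mice 1 and 3 (adjusted p = 0.0886 and 0.138). With quantile normalization the calls over all genes went from 609 higher and 1223 lower to 948 and 945. The sexes were compared in the same 12 mice, and 0 of 39 members were called by limma, with 6 at an unadjusted p under 0.05, where 0.669% of all genes were called in either direction. Leaving out C3HM mouse 2 gave 5 members lower in males.

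Genes that regulate entry into the cycle but are not members were compared for context, in lists chosen for their role. Cdkn1a (p21, an inhibitor of cyclin-dependent kinases) rose by 3.95 ± 0.09 on the log2 scale with hyperoxia in saline mice (adjusted p = 3.59e-17). It lay between 26.8 and 38.1 FPKM in saline C3H mice in room air (median 34.9) and between 508 and 593 in hyperoxia (median 565). In saline C57B mice it lay between 38.5 and 66.6 in room air (median 47.8) and between 608 and 839 in hyperoxia (median 753). Cdkn1a thus rose without overlap in both strains (4.04 ± 0.13 in C3H and 3.86 ± 0.13 in C57B), and the strain difference of its change was not called.

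**Figure D5:**
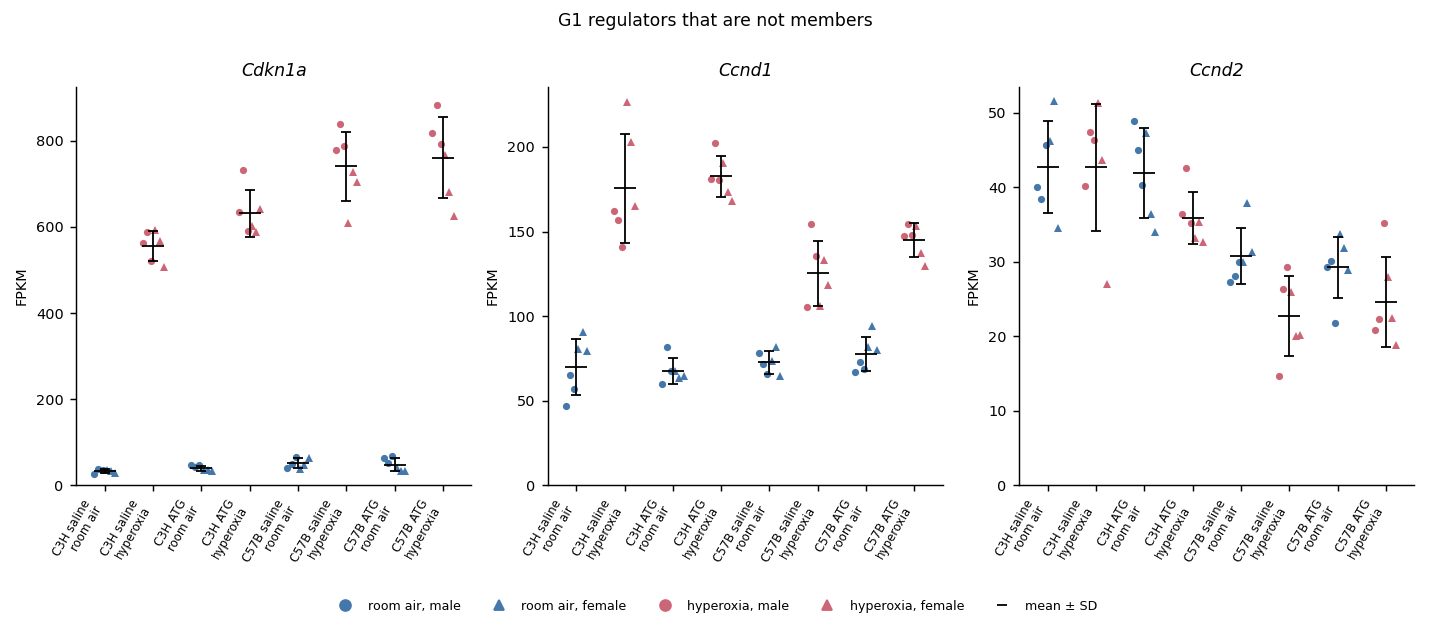
FPKM of Cdkn1a, Ccnd1 and Ccnd2 in each mouse (circles males, triangles females) in the 8 sets of 6 mice, with mean ± SD in black. Cdkn1a is at most 67.9 FPKM in any mouse in room air and at least 508 in any mouse in hyperoxia.

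Of 13 CDK inhibitors and arrest genes, 8 were higher and 3 lower in saline mice in hyperoxia, where 31.8% of all genes were higher and 28.3% lower. Besides Cdkn1a, the largest changes were those of Ccng1 (2.52 ± 0.15) and Gadd45a (1.68 ± 0.10), both targets of p53, and Gadd45g (1.56 ± 0.12). Cdkn2c (by 1.64 ± 0.16), Cdkn2a (by 1.11 ± 0.12) and Cdkn1b (by 1.00 ± 0.08), which are CDK inhibitors too, fell. Of 22 D cyclins, G1 kinases, and RB and E2F family genes tested, 5 were higher and 9 lower. Ccnd1 (cyclin D1) rose by 1.05 ± 0.08, from a median of 72.2 to 164 FPKM in saline C3H mice and from 72.4 to 126 in saline C57B mice, and the rise was larger in C3H (0.56 ± 0.15, adjusted p = 0.0224). Ccnd2 changed by -0.23 ± 0.11 and was not called, although it was called lower in C57B (-0.45 ± 0.16). Rb1 fell by 1.37 ± 0.30, and E2f2 by 0.76 ± 0.09.

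Of 30 other S phase genes tested, 12 were lower and 7 higher, and of 36 other G2/M genes tested, 17 were lower and 4 higher, beside 28.3% and 31.8% of all genes. The first included Gmnn (geminin, an inhibitor of licensing, which fell by 1.27 ± 0.16), Tk1 (thymidine kinase, by 0.83 ± 0.18) and Dbf4 (a partner of the CDC7 kinase, which rose by 0.67 ± 0.09). The second included Stmn1 (stathmin, which fell by 2.22 ± 0.12), Ube2c (by 1.01 ± 0.22), Ncapd2 (a condensin subunit, by 0.92 ± 0.15) and Wee1 (an inhibitory kinase of CDK1, which rose by 1.44 ± 0.16). Within strains, 20 of the 36 G2/M genes were lower in C57B (30.0% of all genes) and 6 in C3H (12.5% of all genes), with median changes of -0.54 and -0.03. Their strain difference was positive for 33 of 36, with a median of 0.39, and was called for 4 (Nek2, Ncaph, Stmn1 and Mad2l1), where 8.71% of all genes were called higher.

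Markers of leukocytes and of lung cells moved in the same samples. In saline mice, 7 of 7 B cell markers and 8 of 8 T and NK cell markers were lower in hyperoxia in C57B, and 4 of 7 and 4 of 8 in C3H. Over all genes, 30.0% were lower and 25.5% higher in C57B, and 12.5% and 25.3% in C3H. The strain difference was called higher for 5 of the 7 and 6 of the 8, against 8.71% of all genes. The summed level of the B cell markers ran from 84.2 to 110 FPKM in saline C57B mice in room air and from 15.1 to 32.6 in hyperoxia, and from 23.2 to 75.0 and from 17.3 to 24.1 in C3H. That of the T and NK cell markers ran from 93.4 to 176 and from 14.3 to 38.4 in C57B, and from 59.6 to 132 and from 41.3 to 62.6 in C3H. These sums fell in C57B without overlap, as did the members' mean level. No marker of these lists was at 0 in all mice of a set. The alveolar type 1 and 2, club, ciliated, endothelial, monocyte, erythroid and cardiac muscle sums also fell in C57B without overlap. Those of fibroblast, neutrophil and plasma cell markers overlapped, and that of alveolar macrophages rose. The alveolar type 2 sum ran from 35207 to 50138 and from 7013 to 12452 in C57B. In C3H it ran from 26159 to 40316 and from 6096 to 22366, also without overlap, where the members' mean level overlapped. Of 7 alveolar type 2 markers 6 were lower and 0 higher in C57B, and 3 lower and 1 higher in C3H. Of 7 endothelial markers 5 were lower and 1 higher in C57B, and 3 lower and 1 higher in C3H. Of 7 neutrophil markers 5 were higher in C57B and 2 in C3H, and of 6 tested erythroid markers 6 and 5 were lower. Of 5 ciliated cell markers 5 were lower in C57B and 3 in C3H, of 5 club cell markers 3 and 1, and of 6 alveolar type 1 markers 4 in each strain, with 0 higher in these 3 lists. Of 7 fibroblast markers 1 was lower and 1 higher in each strain. Of 7 alveolar macrophage markers 4 were higher in each strain, with 2 lower in C57B and 1 in C3H. Of 7 monocyte markers 3 were higher in each strain, with 2 lower in C57B and 1 in C3H. In C57B 5 of the 7, called or not, changed upward, with a median log2 change of 0.55. The fall of their sum in C57B was therefore not shared by most of these markers. The summed level of the monocyte markers ran from 5493 to 11158 FPKM in C57B in room air and from 1422 to 2404 in hyperoxia. In C3H it ran from 2430 to 6379 and from 2584 to 4209, with overlap. The part of these cell types in the change of the members was not tested.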

How the data were processed

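Lung RNA of 48 mice was sequenced once per mouse. Reads were aligned by the authors (GSNAP, genome build mm10), and Cufflinks gave FPKM, per the study's methods and processing notes. Which mice had saline rests on the sample labels. The deposited table holds these FPKM values, 1 per gene and mouse, and no read counts, so depth is unknown and precision rests on the spread between mice. Sums of FPKM ran from 510933 to 748290 per mouse, and Scgb1a1, a club cell transcript, took 10.4% to 30.2% of the sum in room air and 1.2% to 7.17% in hyperoxia, so a change in this gene moves the share left to all others. No 2 mice had identical values. Akap5 held failed estimates and was left out. All genes of the sex chromosomes and of chromosome M are listed at 0, so the labelled sex was not checked.

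Models of log2(FPKM + 1) were fitted by limma 3.58.1 (R 4.3.3, eBayes with trend, group means, contrasts averaged over sex). A gene was tested if 3 or more of the mice in the fit reached an FPKM of 1, with Benjamini-Hochberg adjustment over all genes tested and a threshold of 0.05. Single members were compared by exact permutation of FPKM (scipy 1.17.1). The fits were tested on simulated data. The members and lists were chosen with earlier results of these data known. Every member was named by role; values by group were given for both proliferation markers, for the member of each role with the largest change in saline mice, and for some others chosen after their values were seen (Pcna, Tyms, Cdk1, Bub1 and Bub1b). At most 6 called members were named per comparison, with the exceptions counted there, and at most 6 per context list, besides Cdkn1a, Ccnd1 and Ccnd2. The comparisons of hyperoxia within each strain of ATG mice were added after the data were seen.

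Positions came from GENCODE M21. Of the members, 11 share over 10% of their 30-base sequences (1 in 8 sampled) with transcripts of other genes, and the exons of 10 overlap a gene on the opposite strand; whether the authors' quantification used strand is not given in the sources used here. Mice carry unique numbers, so no pairing was used. Litters and cages are not given in the sources used here, so p-values measure the spread between these mice. The alternatives tried were quantile normalization, median ratio scaling, other filters, a pseudocount of 0.1, eBayes without trend, a fit of all 48 mice, and leaving out each mouse in turn.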

Additional observations from a re-analysis of the deposited data

Results flagged for a closer look

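The change with hyperoxia differed between the strains, by a test of the difference itself, for 5 members in saline mice, with log2 differences (C3H minus C57B) of 1.54 for Top2a, 1.15 for Cdc20, 0.95 for Bub1, 0.68 for Mcm7 and 0.66 for Kif11. It differed for 16 members in ATG mice, with 1.56 for Cdk1, 1.37 for Top2a, 1.22 for Cdc20, 1.03 for Cdca8, 1.03 for Aurkb, 1.01 for Birc5, 0.95 for Ccna2, 0.91 for Mcm7, 0.91 for Uhrf1, 0.89 for Ccnb2, 0.89 for Plk1, 0.87 for Rrm2, 0.81 for Mcm5, 0.77 for Aurka, 0.62 for Kif20a and 0.57 for Mcm4. The change with hyperoxia differed between ATG and saline mice for Top2a, by 0.83. Over all genes, 8.71%, 8.27% and 1.56% were called higher for these differences in turn. Calls kept in every other processing setting and with any single mouse left out were 1 of the 5, 8 of the 16 and that of Top2a.

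Of 72 sets of 6 mice tested for an outlying mouse (the members' mean level and 8 members), 2 passed Dixon's critical value at the 95% level, and chance flags about 1 set in 20. Both were saline C57B mice in hyperoxia. Birc5 was 3.51 FPKM in C57BF mouse 43 and Kif20a was 1.82 FPKM in C57BM mouse 21, each above the other 5 mice.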

How the results depend on the processing

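Of the counts of members, those not named here stayed within 1.5 times their value in every alternative, and no called change of a named member reversed. With quantile normalization, members lower in saline C57B mice went from 28 to 16, those with a called strain difference from 5 to 1 in saline and from 16 to 9 in ATG mice, and those lower in C3H at baseline from 3 to 1. With median ratio scaling, members lower went from 3 to 8 in saline C3H, from 9 to 14 in ATG and from 1 to 2 in ATG C3H mice, and the strain difference in saline mice from 5 to 3. A mean FPKM of at least 1 gave 3 for that difference, a fit of all 48 mice gave 10, and the same fit gave 2 members lower in males at baseline in place of 0. The cause of these shifts was not tested.

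The settings that leave out a pair of mice were chosen after seeing the data. Without C3HM mice 1 and 3, the strain difference in saline mice was called for 2 members and the baseline difference for 1. Without C57BM mouse 19 and C3HF mouse 33, 1 member in place of 2 was higher in saline C57B mice.

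Leaving out each mouse in turn gave 1 to 7 members lower in saline C3H mice, 1 to 2 higher in saline C57B mice, 2 (without C3HF mouse 31) to 11 (without C3HF mouse 33) with a strain difference in saline mice, 1 to 2 lower in ATG C3H mice, and 0 to 2 higher with ATG in hyperoxia. It gave 1 to 2 for the ATG difference, 1 to 3 lower in C3H at baseline (1 without C3HM mouse 1, C57BM mouse 13 or C57BF mouse 38), 0 to 1 higher in C3H or in males at baseline, 0 to 5 lower in males, and 0 to 1 for the sex difference (1 without C57BM mouse 19). The 1 or 5 members at baseline came without C3HM mouse 2.

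The members' mean level, as hyperoxia minus room air, was -0.07 in saline C3H, -0.50 in saline C57B, 0.20 in ATG C3H and -0.39 in ATG C57B mice. A pseudocount of 0.1 moved the last 3 to -0.82, 0.29 and -0.62, and median ratio scaling moved the ATG C3H value to 0.11. The saline C3H value became -0.12 and -0.17 under these 2 settings. Low members limit these values, since 11 of 44 had a median under 1 FPKM.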
